A study of Rattus norvegicus with 10 samples.

Results

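The growth hormone and IGF axis genes described here are Ghr, Igf1, Igfals, Igfbp1, Igfbp2, Igfbp3, Socs2, Cish, Bcl6 and Stat5b. They were taken as every probe set that the platform annotation pairs with exactly 1 gene of these names, which gave 15 probe sets of 10 genes, out of 31042 probe sets and 14217 named genes. Of the 10 genes, 6 had 1 probe set and 4 had several. The rats were male Sprague-Dawley animals, labelled as 5 weeks old. The iron-deficient group (5 rats) ate freely for 3 days a diet with about 3 ppm iron, made by leaving ferric citrate out of the control diet. The pair-fed group (5 rats) received the control diet, with 48 ppm iron, in matched amounts. Both groups had been trained to eat in a fixed daytime window. Each liver was taken 1.5 h after feeding and hybridised to its own Affymetrix rat genome array. Values are log2 robust multiarray average (RMA) signals, and replicates are separate rats.

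Growth hormone from the pituitary binds its receptor Ghr on hepatocytes, and the kinase JAK2 then phosphorylates STAT5b, which enters the nucleus and induces Igf1, Igfals, Socs2 and Cish. IGF1, the main growth factor that liver releases into blood, travels in a complex with IGFBP3 and the acid-labile subunit encoded by Igfals. SOCS2 and CISH damp the receptor's signal, BCL6 is a transcriptional repressor that competes with STAT5 at shared sites in mouse liver, and Igfbp1 is held low by insulin and raised in fasting through FOXO factors.

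The array medians lay between 6.19 and 6.22 log2 units. The array of iron-deficient replicate 1 stood somewhat apart, correlating with the other 9 arrays at 0.992 on average, against 0.993 to 0.994 for each of those. It also had the largest difference between the 3' and 5' control probe sets, 0.36 for Gapdh (the other arrays -0.05 to 0.11) and 1.74 for actin (the other arrays 1.08 to 1.33). Of the hepatocyte marker list, 7 of 8 genes were measured and 0 passed the test, and Tat, the liver tyrosine aminotransferase, differed most, by -0.14. The summed hepatocyte markers (log2 of the summed linear signals) covered 17.25 to 17.29 in the iron-deficient group and 17.22 to 17.26 in the pair-fed group. In bulk liver, fewer cells of a type and less RNA per cell cannot be told apart.

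The stretches upstream of 3 members are shown because they carry letters of elements tied to STAT5 or to insulin. The sequences are those of RefSeq, build GRCr8, which holds an upstream entry for 9 of the 10 members, all but Socs2. Capitals mark TTCNNNGAA, the STAT5 palindrome, and CAAAACA, the core of the insulin response element known from the Igfbp1 promoter. The Igfbp1 stretch is chr14:86261087-86261226 (plus strand), positions -190 to -51 from the start. The Igf1 stretch is chr7:24172382-24172531 (plus strand), positions -150 to -1. The Cish stretch is chr8:116850719-116850888 (plus strand), positions -250 to -81.
Igfbp1: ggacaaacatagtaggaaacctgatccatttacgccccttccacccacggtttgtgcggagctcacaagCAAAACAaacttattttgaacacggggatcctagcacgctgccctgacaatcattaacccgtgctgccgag
Igf1: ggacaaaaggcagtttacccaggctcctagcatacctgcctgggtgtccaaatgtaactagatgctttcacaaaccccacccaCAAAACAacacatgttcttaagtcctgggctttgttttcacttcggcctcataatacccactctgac
Cish: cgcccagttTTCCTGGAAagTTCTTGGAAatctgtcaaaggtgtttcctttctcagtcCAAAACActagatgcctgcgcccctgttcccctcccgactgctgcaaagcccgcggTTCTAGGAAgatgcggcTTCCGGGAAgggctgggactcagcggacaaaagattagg

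Both strands of the 250 bases before each start were searched, and no match in these 3 genes overlapped another. The Cish window held 4 STAT5 palindromes, beginning at -241, -230, -136 and -119. Of all 33469 RefSeq windows of this length, 7.67% held at least 1 palindrome and 0.0209% held 3 or more. CAAAACA began at -121 in Igfbp1, at -67 in Igf1 and at -192 in Cish, and 5.46% of all windows held it. The forkhead core GTAAACA was in 3.21% of all windows and in 0 of the 9 member windows. These matches describe letters in a window and say nothing of binding. The table gives 1 start per gene, whereas Igf1 is read from several.

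Across the axis, the repressor Bcl6 was down-regulated 2.13-fold in the iron-deficient group, Igfbp2 was down-regulated 1.44-fold and Igfbp1 was up-regulated 1.54-fold. These 3 passed by the rank products method described below, and 0 member probe sets passed by limma. In all 3 the groups overlapped, and only Bcl6 passed in 10 of 10 runs that left out 1 array. In 3 probe sets of Igf1 and Igfals all 5 iron-deficient rats were higher than any pair-fed rat, by 1.22- to 1.36-fold, but these did not pass the test. The receptor Ghr, the transducer Stat5b and the feedback inhibitors Socs2 and Cish did not pass in either direction.

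The rank products method, which the study used, ranks the fold changes of all 25 pairs of an iron-deficient with a pair-fed rat, and probe sets whose false discovery rate was under 0.05 are called up- or down-regulated here and said to pass. Of the 15 member probe sets, 1 was up-regulated and 2 were down-regulated, where 0.303% of all probe sets were up-regulated and 0.57% down-regulated. The members were chosen with earlier results of these data known, so the shares are set side by side without a test. In 3 member probe sets every iron-deficient value lay above every pair-fed value, and in 0 every value lay below, against 0.493% and 0.799% of all probe sets. By limma with Benjamini-Hochberg adjustment 0 member probe sets passed 0.05, and 0% of all probe sets did. At an unadjusted limma p under 0.05, 4 member probe sets were higher and 1 was lower, where 3.21% of all probe sets were higher and 3.77% lower. The 4 higher ones were the probe sets of Igf1 and Igfals. Of the 15, 12 had a positive log2 fold change and 3 a negative one, where 51.4% of all probe sets had a positive one. That count holds some genes more than once. By the brightest probe set of each of the 10 members, 7 genes were higher and 3 lower. The median over the 10 members, each by its brightest probe set, was 0.20, beside 0.0036 over all probe sets.

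**Figure D1:**
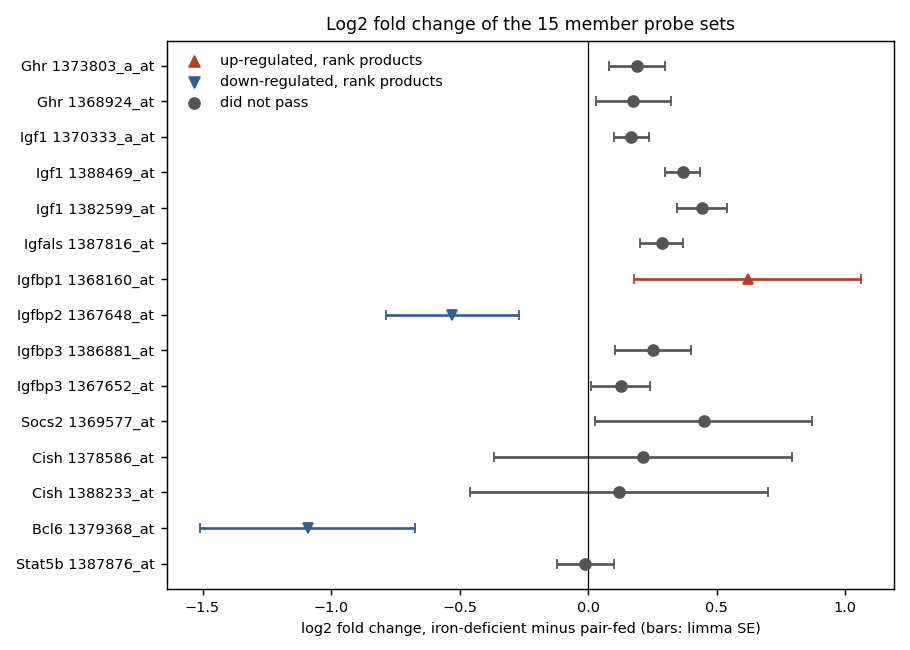
Log2 fold change (iron-deficient minus pair-fed) of the 15 member probe sets, with bars of 1 limma standard error (n = 5 rats per group) and the rank products result by colour and symbol. Bcl6 lies farthest to the left at -1.09, and Igfbp1 farthest to the right at 0.62 with a wide bar.

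Ghr, the growth hormone receptor, was measured by 2 probe sets and neither passed. Probe set 1373803_a_at covered 11.25 to 11.85 in the iron-deficient group and 11.21 to 11.58 in the pair-fed group. Its log2 fold change was 0.19 ± 0.109 (SE; limma adjusted p = 0.77), and the groups overlapped. For 1368924_at the change was 0.17 ± 0.146, with an adjusted p of 0.84 by limma. Over the 10 rats the Ghr probe sets correlated with each other at r = 0.39, so they did not order the rats alike.

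Stat5b, which carries the receptor's signal to the nucleus, differed least of the members. The iron-deficient rats had 6.86, 6.25, 6.21, 6.49 and 6.57, and the pair-fed rats had 6.38, 6.50, 6.51, 6.59 and 6.47. Its log2 fold change was -0.01 ± 0.110 (SE; limma adjusted p = 0.992), and the pair-fed rats lay within the range of the iron-deficient rats. The SD was 0.265 in the iron-deficient group and 0.0742 in the pair-fed group. Both values are given without a test of the spread.

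Igf1, the circulating growth factor itself, was measured by 3 probe sets. By 1388469_at the iron-deficient rats had 13.53, 13.40, 13.30, 13.23 and 13.33, and the pair-fed rats had 13.04, 12.93, 12.96, 12.94 and 13.08. Every iron-deficient rat was above every pair-fed rat. The means were 13.36 ± 0.115 and 12.99 ± 0.0659 in the iron-deficient and pair-fed groups (SD, n = 5 each), a 1.29-fold difference or 0.37 ± 0.0687 on the log2 scale (SE). The exact permutation p was 0.00794, the smallest that 5 against 5 rats can give, and the limma adjusted p was 0.494. Ranked by its limma p this probe set was number 7 of 31042.

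By 1382599_at, Igf1 was 12.15, 12.09, 11.59, 11.84 and 11.93 in the iron-deficient rats and 11.47, 11.37, 11.55, 11.49 and 11.52 in the pair-fed rats. The groups again did not overlap, with iron-deficient replicate 3 just above the highest pair-fed rat. This probe set differed by 1.36-fold, or 0.44 ± 0.0971 (SE; exact permutation p = 0.00794, limma adjusted p = 0.494), and its rank products false discovery rate was 0.0715. The third Igf1 probe set, 1370333_a_at, gave 13.96, 14.17, 14.01, 13.85 and 14.05 in the iron-deficient rats and 13.84, 13.85, 13.84, 13.77 and 13.90 in the pair-fed rats. Here the groups overlapped, since iron-deficient replicate 4 lay below the highest pair-fed rat. Its change was 0.17 ± 0.0669 (SE; exact permutation p = 0.0238, limma adjusted p = 0.673). Thus the probe sets shared the direction but not the size, and their rats correlated at r = 0.69 to 0.91. The brightest, 1370333_a_at, had the smallest change, and it stands for Igf1 in the member median and in the correlations by brightest probe set.

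Igfals encodes the acid-labile subunit, which keeps IGF1 in the circulation. It had 11.41, 11.24, 11.06, 11.09 and 11.31 in the iron-deficient rats, and 10.95, 10.85, 11.03, 10.80 and 11.04 in the pair-fed rats. All iron-deficient rats were above all pair-fed rats, by a narrow margin in replicate 3. The means were 11.22 ± 0.148 and 10.94 ± 0.109 in the iron-deficient and pair-fed groups (SD, n = 5 each), a 1.22-fold difference or 0.29 ± 0.0824 (SE; exact permutation p = 0.00794, limma adjusted p = 0.601). Its rank products false discovery rate was 0.449. Iron-deficient replicate 1, whose array stood somewhat apart, held the highest value of Igfals and of 1388469_at and 1382599_at for Igf1. Without it the log2 fold changes were 0.24, 0.32 and 0.38.

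**Figure D2:**
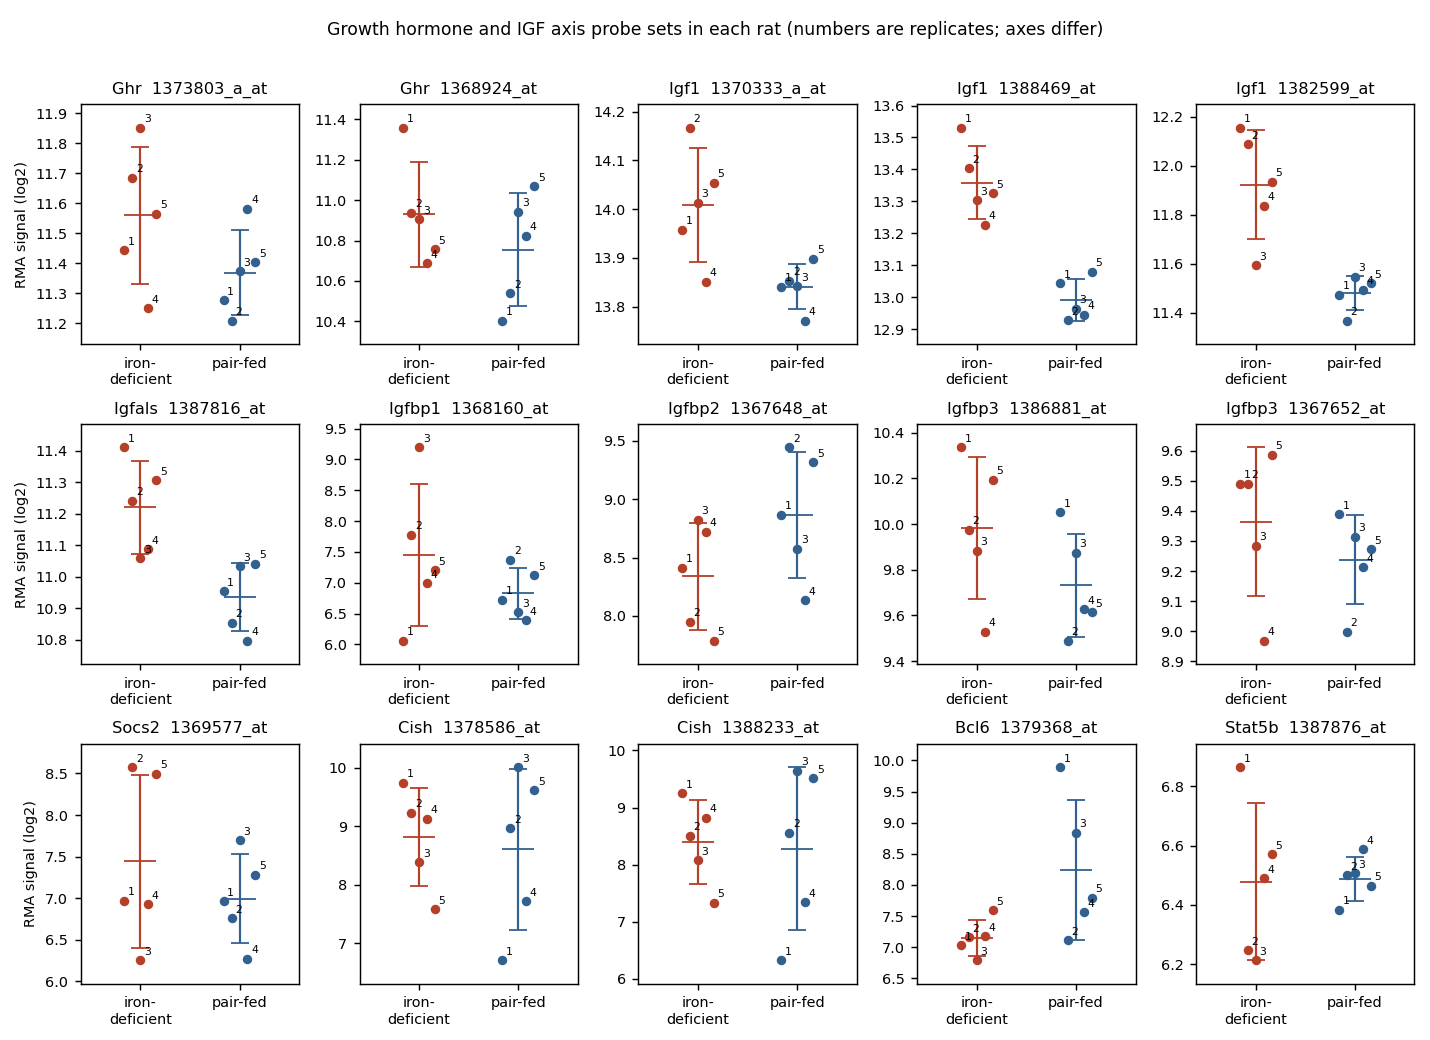
Log2 RMA signal of members in each rat, iron-deficient rats on the left and pair-fed rats on the right of each panel, numbered by replicate, with the mean and SD of each group of 5. The Igf1 and Igfals panels show groups that do not overlap for 3 probe sets, and the Bcl6 panel shows iron-deficient rats between 6.79 and 7.60 beside pair-fed rats between 7.11 and 9.89.

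Igfbp3, the main carrier of IGF1 in blood, did not pass by either probe set. By 1386881_at it covered 9.53 to 10.34 in the iron-deficient group and 9.49 to 10.05 in the pair-fed group, a change of 0.25 ± 0.147 (SE; limma adjusted p = 0.771). By 1367652_at the change was 0.13 ± 0.115 (limma adjusted p = 0.853), and the probe sets ordered the rats alike (r = 0.90). In rat liver Igfbp3 is made mainly by non-parenchymal cells. Of the endothelial cell markers 6 of 8 were measured, 5 were higher and 0 passed, with a median of 0.10, and Stab2, a scavenger receptor, differed most at 0.29. Their sum covered 12.54 to 12.64 in the iron-deficient group and 12.42 to 12.55 in the pair-fed group. Of the Kupffer cell markers 6 of 8 were measured, all 6 were lower and 0 passed, with a median of -0.17, and Cd68, a lysosomal protein of macrophages, differed most at -0.23. Their sum covered 12.46 to 12.78 in the iron-deficient group and 12.49 to 13.14 in the pair-fed group. The stellate cell markers were higher in 7 of 8 genes, with a median of 0.25. Of the 8, 1 was up-regulated, where 0.303% of all probe sets were. The sum of the 8 markers covered 12.73 to 13.34 in the iron-deficient group and 12.53 to 12.77 in the pair-fed group. Lum, a matrix proteoglycan, was the one that passed, at 0.78, but its mean signal was under log2 5 and it did not pass without iron-deficient replicate 1, where it was 0.54. The part of these cell types in the Igfbp3 values was not tested.

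Igfbp1, a short-lived IGF carrier whose liver message follows insulin closely, was up-regulated. The iron-deficient rats had 6.06, 7.78, 9.19, 6.997 and 7.21, and the pair-fed rats had 6.73, 7.37, 6.53, 6.40 and 7.12. Replicate 3 was far above all other rats, whereas iron-deficient replicate 1 was the lowest of all 10. The means were 7.45 ± 1.16 and 6.83 ± 0.409 in the iron-deficient and pair-fed groups (SD, n = 5 each), a 1.54-fold difference or 0.62 ± 0.443 (SE). The rank products false discovery rate was 0.0154, while the exact permutation p was 0.325 and the limma adjusted p was 0.809. The change held by the rank products in 8 of 10 runs that left out 1 array. It was 0.18 without iron-deficient replicate 3 and 0.54 without iron-deficient replicate 2, and in neither case did it pass. Without iron-deficient replicate 1 it was 0.97. Igfbp1 and Igfbp3 lie side by side on rat chromosome 14, with 0 protein-coding genes between them in RefSeq.

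Of a list of regulators of Igfbp1, 11 of 12 genes were measured and 0 passed, 7 of them higher and 4 lower, with a median of 0.07. The largest were Ppargc1a, a coactivator of the fasting programme, at 0.31, and Foxo1, the insulin-restrained forkhead factor, at 0.23. Ppargc1a was highest in iron-deficient replicate 3, at 8.21, the same rat that had the highest Igfbp1. Foxo1 was highest in iron-deficient replicate 5, at 8.05, and was 7.71 in iron-deficient replicate 3. Whether either varied with Igfbp1 over the rats was not tested.

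Igfbp2, another IGF carrier of liver, was down-regulated. It had 8.41, 7.95, 8.83, 8.72 and 7.79 in the iron-deficient rats and 8.87, 9.44, 8.58, 8.13 and 9.32 in the pair-fed rats. The groups overlapped, although 0 of 5 iron-deficient rats exceeded the pair-fed median. The means were 8.34 ± 0.460 and 8.87 ± 0.539 in the iron-deficient and pair-fed groups (SD, n = 5 each), a log2 fold change of -0.53 ± 0.259 (SE). Its rank products false discovery rate was 0.0147, with an exact permutation p of 0.127 and a limma adjusted p of 0.734. It passed in 6 of 10 runs that left out 1 array, and not without iron-deficient replicate 2 (-0.43) or 5 (-0.39) or pair-fed replicate 2 (-0.38) or 5 (-0.42). Igfbp1 and Igfbp2 thus passed in opposite directions.

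Socs2, a STAT5 target that brakes growth hormone signalling, did not pass. The iron-deficient rats had 6.97, 8.57, 6.25, 6.93 and 8.50, and the pair-fed rats had 6.96, 6.76, 7.70, 6.27 and 7.28. Iron-deficient replicates 2 and 5 were above every pair-fed rat, and the others lay among or below them. The log2 fold change was 0.45 ± 0.422 (SE; limma adjusted p = 0.859), and the rank products false discovery rate of 0.055 lay just outside the threshold. Socs2 was up-regulated in 5 of 10 runs that left out 1 array, namely without iron-deficient replicate 1, 3 or 4 or pair-fed replicate 3 or 5. The change was 0.17 without iron-deficient replicate 2, 0.19 without iron-deficient replicate 5 and 0.27 without pair-fed replicate 4, and the difference of the group medians was 0.0042.

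Cish, the STAT5 target whose upstream stretch with 4 palindromes is printed above, spread widely within both groups. By 1378586_at the iron-deficient rats had 9.74, 9.23, 8.38, 9.13 and 7.59, and the pair-fed rats had 6.71, 8.96, 10.01, 7.71 and 9.62. The pair-fed rats held both the lowest and the highest value. The difference was 0.21 ± 0.579 (SE; limma adjusted p = 0.964), and 1388233_at gave 0.12 ± 0.579 (limma adjusted p = 0.98) with the rats in nearly the same pattern (r = 0.99). Leaving out 1 array moved the first between -0.26 and 0.56 and the second between -0.37 and 0.46, and the difference of the group medians was -0.05 for the second, so no direction is given. Both were up-regulated without pair-fed replicate 3 or 5.

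Bcl6, the repressor, showed the largest change of the members. The iron-deficient rats had 7.03, 7.16, 6.79, 7.17 and 7.60, and the pair-fed rats had 9.89, 7.11, 8.84, 7.56 and 7.79. As for Igfbp2, 0 of 5 iron-deficient rats exceeded the pair-fed median, but the groups overlapped because pair-fed replicates 2 and 4 fell within the iron-deficient range. The means were 7.15 ± 0.295 and 8.24 ± 1.12 in the iron-deficient and pair-fed groups (SD, n = 5 each), a 2.13-fold lower level or -1.09 ± 0.418 (SE). The rank products false discovery rate was 0 in 100 permutations, with an exact permutation p of 0.0556 and a limma adjusted p of 0.663. Bcl6 passed in 10 of 10 runs that left out 1 array. The change was -0.68 without pair-fed replicate 1, which had the highest value, and -1.37 without pair-fed replicate 2. The difference of the group medians was -0.63.

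**Figure D3:**
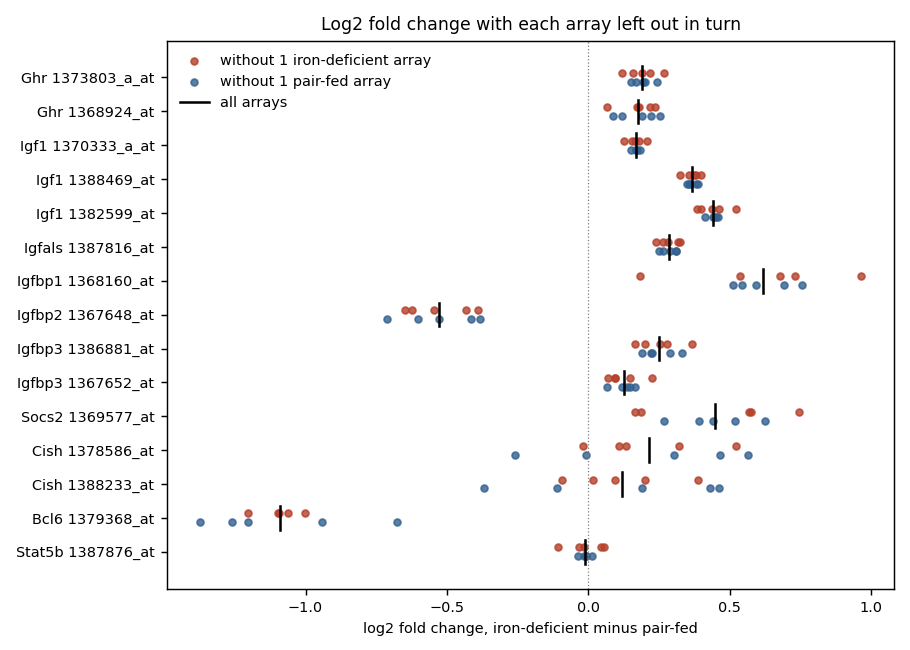
Log2 fold change (iron-deficient minus pair-fed) of each member probe set with each of the 10 arrays left out in turn, by the group of the array left out, with a black line for all arrays. Bcl6 stayed between -1.37 and -0.68, whereas Cish crossed 0 and Igfbp1 ranged from 0.18 to 0.97.

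Bcl6 is also used by lymphocytes. Of the lymphocyte markers 8 of 8 were measured, 6 were lower and 1 was down-regulated, with a median of -0.08. That 1 was Cd52, a surface glycoprotein of lymphocytes, at -0.89, and 3 defining markers, Cd3d, Cd8a and Gzmb, had mean signals under log2 5. The summed lymphocyte markers covered 8.55 to 8.83 in the iron-deficient group and 8.51 to 8.96 in the pair-fed group. Of the erythroid markers 7 of 8 were measured, all 7 were lower and 5 were down-regulated, with a median of -0.68. Over all probe sets 0.57% were down-regulated. Hemgn, a nuclear protein of red cell precursors, differed most of the erythroid markers at -1.23. Their sum covered 13.14 to 13.82 in the iron-deficient group and 13.70 to 14.32 in the pair-fed group. The part of these cell types in the Bcl6 values was not tested.

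Among the members, all 45 pairs of genes were correlated over the 10 rats with the brightest probe set of each, and 0 pairs passed after Benjamini-Hochberg adjustment by permutation, while 4 had an unadjusted Pearson p under 0.05. The strongest was Igfbp1 with Stat5b, at r = -0.80 (permutation p = 0.00938, adjusted 0.259) and rho = -0.73 (permutation p = 0.0202, adjusted 0.454). Without iron-deficient replicates 1 and 3 it was r = -0.59, and within the diets it was r = -0.84 (exact within-group permutation p = 0.03, adjusted 0.578). Igfals with Igfbp3 had r = 0.76 (permutation p = 0.0115, adjusted 0.259) and rho = 0.60 (permutation p = 0.0731, adjusted 0.625), r = 0.72 within the diets (exact permutation p = 0.0385, adjusted 0.578), and r = 0.43 without iron-deficient replicates 1 and 5.

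Igf1 with Igfals, which circulate in 1 complex, had r = 0.72 (permutation p = 0.0203, adjusted 0.305) and rho = 0.77 (permutation p = 0.0129, adjusted 0.454). Within the diets it was r = 0.35 (exact permutation p = 0.435), and without iron-deficient replicates 2 and 5 it was r = 0.66. This pair depended on how the Igf1 probe sets were combined. With the mean over the probe sets of each gene it was r = 0.93 (permutation p = 8e-05, adjusted 0.0036) and rho = 0.94 (permutation p = 0.00027, adjusted 0.0122), and r = 0.91 without iron-deficient replicates 1 and 2. Within the diets that value was r = 0.83 (exact permutation p = 0.0162, adjusted 0.388).

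Other genes of the pathway were read from 6 lists, with the brightest probe set of each gene, and 7 of 73 measured genes passed in some direction. Over all probe sets 0.303% were up-regulated and 0.57% down-regulated. Of receptor signalling genes 19 of 22 were measured, and 1 was up-regulated, with 9 higher, 10 lower and a median near 0. That 1 was Prlr, the prolactin receptor, a relative of Ghr that is female-biased in rat liver. Its iron-deficient rats had 9.998, 10.64, 9.46, 7.69 and 10.09, and its pair-fed rats had 8.66, 8.62, 8.62, 9.11 and 8.87. The iron-deficient replicates 1, 2, 3 and 5 were above all pair-fed rats, and replicate 4 was below them all. The log2 fold change was 0.80 ± 0.418 (SE; rank products false discovery rate 0, exact permutation p = 0.167, limma adjusted p = 0.742), and it passed in 10 of 10 runs that left out 1 array, with values from 0.53 without iron-deficient replicate 2 to 1.27 without iron-deficient replicate 4. Its other 2 probe sets were also up-regulated, at 0.44 each. Stat3, which cytokine receptors use, came next at 0.35 and did not pass.

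Liver genes that growth hormone sets by its sex-dependent rhythm were split into a female-biased and a male-biased list. The rats were young males, labelled as 5 weeks old. Whether these lists follow that rhythm at this age was not tested. Of the female-biased genes 9 of 9 were measured, all 9 were higher and 3 were up-regulated, with a median of 0.30. Over all probe sets 51.4% were higher and 0.303% up-regulated. Sult2a1 was higher by only 0.02 and had a mean signal under log2 5. With 1 array left out in turn, 8 or 9 of the 9 genes were higher and the list median covered 0.08 to 0.41. It was 0.08 with 1 gene up-regulated without iron-deficient replicate 2, 0.18 with 0 up-regulated without iron-deficient replicate 1, and 0.19 without iron-deficient replicate 5 or pair-fed replicate 2. Cux2, a female-specific repressor of liver, had 6.12, 6.23, 5.73, 5.15 and 5.71 in the iron-deficient rats and 5.44, 5.33, 4.98, 5.23 and 4.94 in the pair-fed rats. Only iron-deficient replicate 4 overlapped the pair-fed rats, and the change was 0.60 ± 0.179 (SE; exact permutation p = 0.0317, limma adjusted p = 0.601). It no longer passed without iron-deficient replicate 1 or 2. A second probe set of Cux2, with a mean signal under log2 5, was also up-regulated, at 1.04. Cyp2c7, a female-predominant cytochrome P450, was up-regulated at 0.73 ± 0.537 (SE), and not without iron-deficient replicate 1 or 3 or pair-fed replicate 2, where it was 0.19 in the last case. Sult2a2, a hydroxysteroid sulfotransferase, was up-regulated at 0.59 ± 1.03 (SE), and passed in 4 of 10 runs that left out 1 array. It did not pass without iron-deficient replicate 1 or 2 or pair-fed replicate 1, 2, 3 or 5, and the value ranged from -0.15 without iron-deficient replicate 1 to 1.35 without pair-fed replicate 4.

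Of the male-biased genes 10 of 11 were measured, 3 were higher and 7 lower, with a median of -0.06. That median turned to 0.05 without iron-deficient replicate 5 and to 0.02 without pair-fed replicate 5. Hsd3b5, a male-specific steroid reductase, was up-regulated at 0.67 ± 0.796 (SE), and it did not pass without iron-deficient replicate 3 or 4, with a value of 0.11 without the last. Sult1c2, a sulfotransferase, was down-regulated at -0.53 ± 0.539 (SE), and passed in 6 of 10 runs that left out 1 array, not without iron-deficient replicate 2 or pair-fed replicate 1, 3 or 5. Over all probe sets 0.303% were up-regulated and 0.57% down-regulated. The 1 up-regulated and 1 down-regulated gene of the male-biased list thus gave no shared direction.

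Of the remaining IGF system 14 of 15 genes were measured and 0 passed, 10 of them higher and 4 lower, with a median of 0.09. The largest were Stc1, a stanniocalcin that restrains the protease which frees IGF from its carriers, at -0.32, and Igf2, the fetal growth factor, at 0.24. A further list joined genes induced by growth hormone with early response genes, which other signals can move too. Of its genes 10 of 10 were measured, 4 higher and 6 lower, and 1 was down-regulated, where 0.57% of all probe sets were. The median was -0.03 and covered -0.10 to 0.02 with 1 array left out in turn. Jun, a subunit of the AP-1 transcription factor, was down-regulated at -0.44 ± 0.373 (SE) and passed in 6 of 10 runs that left out 1 array, not without iron-deficient replicate 3 or 5 or pair-fed replicate 3 or 5. Of its other probe sets 1 was down-regulated, at -0.51, and 1 did not pass, at -0.33 (false discovery rate 0.112). Lepr, the leptin receptor, was lower in all 5 iron-deficient rats (8.29 to 8.39) than in any pair-fed rat (8.42 to 9.11). Over all probe sets 0.799% were separated in this direction. The Lepr change was -0.42 ± 0.117 (SE; exact permutation p = 0.00794), but its rank products false discovery rate of 0.0603 did not pass.

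**Figure D4:**
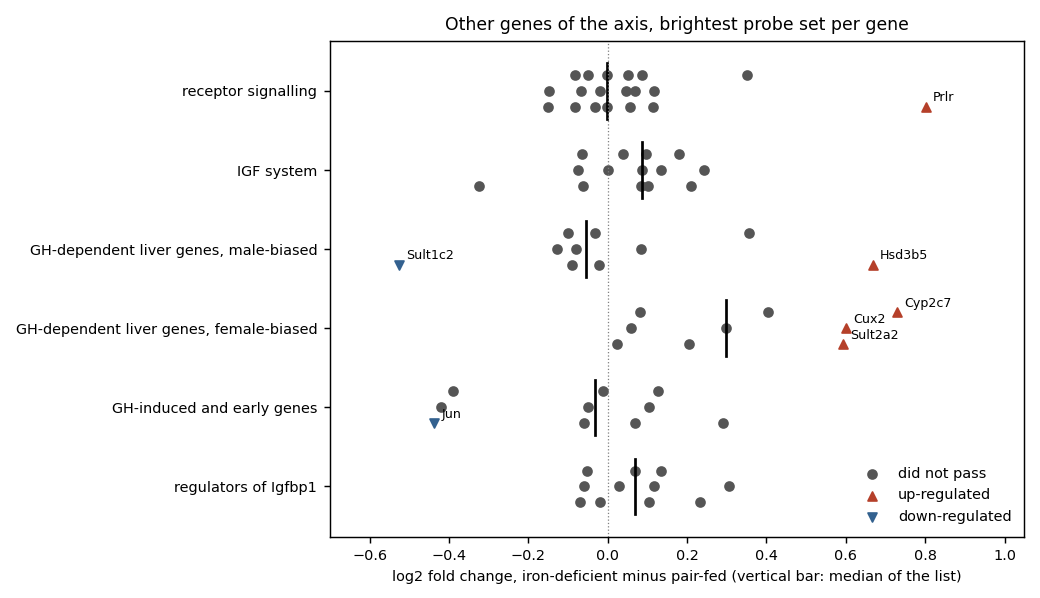
Log2 fold change (iron-deficient minus pair-fed) of each measured gene in the 6 pathway lists, with the genes that passed the rank products marked and the median of each list. The 9 female-biased genes lie above 0 with a median of 0.30, which was 0.08 without iron-deficient replicate 2, and the genes of the other 5 lists fall on both sides of 0.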

How the data were processed

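Total RNA of 10 livers, 5 iron-deficient and 5 pair-fed, was hybridised to 1 Affymetrix rat genome array each. The authors deposited log2 values, made from the probe intensities by RMA in R and Bioconductor (background correction, quantile normalization and summary per probe set). RMA compresses differences of dim and of very bright probe sets. No genome build is given in the sources used here. The label of the source names the iron-deficient diet for the control samples, so groups were taken from the titles and treatment labels. The labels and the methods also give different hours for the removal of feed.

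The deposited values were used unchanged. Of 31099 probe sets, 57 controls were left out and 31042 were tested. The platform annotation pairs 20826 with 1 gene, 436 with several and 9780 with none, and symbols looked up by Entrez ID in RefSeq for 20758 probe sets changed for 0 of them. Rank products followed the study's methods, with 25 pairs and 100 permutations. Standard errors and Benjamini-Hochberg adjusted p-values over all probe sets came from limma 3.58.1 in R 4.3.3. Exact permutation tests were 2-sided over 252 arrangements, done per probe set without adjustment, and correlations used 100000 resamples (scipy 1.17.1). The number of arrays limits the precision. The steps were tested on simulated data.

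The members and lists were chosen with earlier results of these data known. Every member probe set is named. Of each pathway list the genes that passed are named, at most 4, and where fewer than 2 passed, the 2 with the largest change. Of each marker list the gene with the largest change is named. Of the marker genes, Cd3d, Cd8a and Gzmb are named for their low signal, and so is Sult2a1 of the female-biased list. Summed marker values are log2 of summed linear signals. Alternatives were rank sums, limma as the test, pairs by replicate number, a floor at log2 5, median centring, quantile normalization, medians, the mean over probe sets, deviations from diet means and each array left out.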

Additional observations from a re-analysis of the deposited data

How the results depend on the processing

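By the rank sum and by limma, 0 member probe sets were up-regulated and 0 down-regulated, in place of 1 and 2. With each array left out in turn, 0 to 4 were up-regulated (0 without iron-deficient replicate 2, and 4 without pair-fed replicate 3 or 5) and 1 to 2 down-regulated. The 4 include both probe sets of Cish. Over all probe sets 47 were up-regulated without iron-deficient replicate 2, against 94 with all arrays. Without pair-fed replicate 3 or 5 there were 101 and 99. The genes called in the pathway lists numbered 4 to 8, against 7, with the lowest count without iron-deficient replicate 2. The mean over the probe sets of a gene raised the member correlations that passed to 1. The 210 member values under other settings include pairs by replicate number, where the log2 fold change is the same by construction and cannot reverse. They also include median centring, which moves all values alike by a small amount. Of the 210 values 10 reversed, 9 of them with an array left out. Those 9 were Cish by 1378586_at (-0.02, -0.26 and -0.01 without iron-deficient replicate 1 and pair-fed replicates 1 and 4, within a range of -0.26 to 0.56), Cish by 1388233_at (-0.09, -0.37 and -0.11 without the same arrays, within a range of -0.37 to 0.46), and Stat5b (0.047, 0.055 and 0.014 without iron-deficient replicates 2 and 3 and pair-fed replicate 4, within a range of -0.11 to 0.055). The cause was not tested. The other was Cish by 1388233_at, at -0.051 as the difference of the group medians. Median centring and quantile normalization changed no member's call or direction. Centring could not change a call, since fold changes are ranked within each pair of arrays, and RMA had already quantile normalized the values. No member's mean signal was under log2 5, so the floor on dim probe sets left out none of them. With the floor, 1 member probe set was up-regulated and 2 were down-regulated, as without it.

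Same-numbered arrays did not deviate together: their deviations correlated at -0.04 to 0.09, and 1 of 5 arrays in each group correlated best with its own number. The labels do not say whether the numbers stand for feeding pairs, and these correlations cannot tell. With the replicate block (same-number pairs) 3 member probe sets were up-regulated, adding Socs2 (0.45) and Cish by 1378586_at (0.21), and 2 were down-regulated. With the block in limma, 6 had an unadjusted p under 0.05, in place of 5. The share over all probe sets was not counted with the block.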
